A study of Mus musculus with 6 samples.

Results

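Endothelial cells line blood vessels, and the 36 genes described here are known as their markers. They were followed through libraries made from macrophages of mouse liver tumours (hepatocellular carcinoma). The tumour macrophages (TAM, tumour-associated macrophages) were labelled by TREM2, a lipid-sensing surface receptor of myeloid cells, and there were 3 TREM2+ libraries and 3 TREM2- libraries, numbered 1, 2 and 3 in each group. The labels give liver tumour as the tissue of both groups and polyadenylated RNA as the molecule. The sources used here do not give strain, age, tumour model or sorting gate, nor whether replicates came from separate animals, so the spread between replicates may be technical. The 36 genes were found by symbol among 55291 gene symbols, and all 36 had a row. They were put together because of how they differed between these same TREM2+ and TREM2- libraries, so that difference is given for them as a description, with no test. Values are listed for replicates 1, 2 and 3, in that order, throughout.

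As background, vessels are built and kept by a few linked systems. VEGF ligands act through the receptor kinases encoded by Kdr and Flt1, and angiopoietins act through the receptor encoded by Tek. Transcription factors of the ETS family such as ERG, and of the SOXF family (SOX7, SOX17 and SOX18), hold endothelial identity, and VE-cadherin and claudin-5 seal the junctions between the cells. In the liver, the capillaries are sinusoids, whose endothelial cells are fenestrated and lie next to Kupffer cells, the resident macrophages of the liver. Several of the 36 genes are also known outside endothelium: Pecam1 on leukocytes and platelets, Nrp1 and Flt1 on macrophages, Cd34 on blood progenitors, Vwf in megakaryocytes, Tek on a subset of monocytes, and Cdh5 in Kupffer cells.

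Recovered depth ranged from 11493465 to 19929829 reads per library. Macrophage genes were abundant in both groups, with Cd68 at 1913 ± 243 TPM in TREM2+ and 1387 ± 220.0 TPM in TREM2- libraries and the receptor gene Csf1r at 320.4 ± 66.7 TPM in TREM2+ and 247 ± 107 TPM in TREM2- libraries (SD, n = 3). TPM here is the deposited length-scaled value after each library was brought to a total of 1000000, so levels of different genes can be compared. Trem2 stood at 39.6, 40.8 and 30.7 TPM in the TREM2+ libraries, against 16.9, 20.5 and 21.1 TPM in the TREM2- libraries, with a log2 fold change of 0.89 ± 0.22 (standard error) and an adjusted p of 0.0855 in limma. Libraries also differed within groups: a repeat family around Gm10800 took 0.704% to 17.5% of TPM in the TREM2+ libraries and 0.427% to 24.6% in the TREM2- libraries, and mitochondrial transcripts took 3.78% to 10.02% in TREM2+ and 2.42% to 12.3% in TREM2- libraries. Within each group every 2 libraries differed by more than counting noise (chi-square over degrees of freedom 77.7 to 238).

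Summed over the 36 genes, the level was 675, 508 and 534 TPM in the TREM2+ libraries, against 114, 93.6 and 66.7 TPM in the TREM2- libraries. Every TREM2+ library was above every TREM2- library. These sums are small parts of the transcriptome, 0.0508% to 0.0675% of all TPM in the TREM2+ libraries and 0.00667% to 0.0114% in the TREM2- libraries. The mean was 572 ± 90.2 TPM for TREM2+ and 91.5 ± 23.8 TPM for TREM2- (SD, n = 3), a ratio of 6.25. Without the 3 most abundant genes (Igfbp7, Cyp4b1 and Gpihbp1) the sum was 337, 259 and 266 TPM in the TREM2+ libraries, against 80.9, 60.5 and 50.9 TPM in the TREM2- libraries, a ratio of 4.48. In RNA pooled from many cells, fewer cells of a type and less RNA per cell cannot be told apart.

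**Figure D1:**
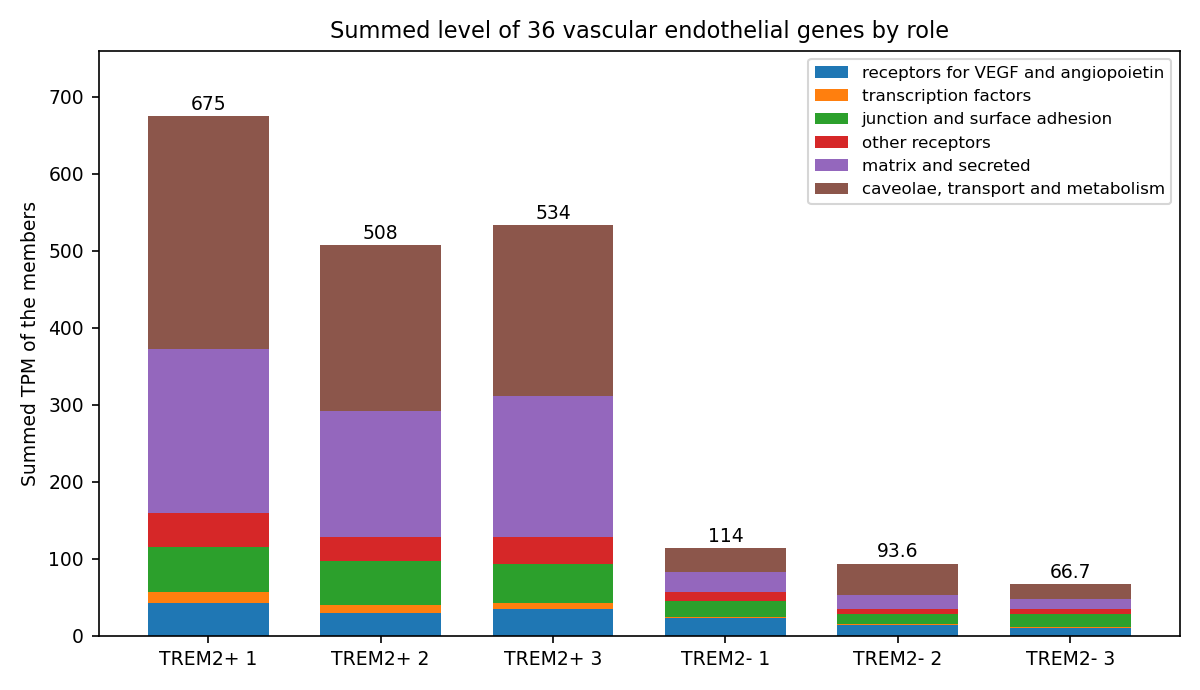
Summed TPM of the 36 vascular endothelial genes in each library (bars, split by the role of the genes; the number above a bar is the total). The 3 TREM2+ libraries lie between 508 and 675 TPM and the 3 TREM2- libraries between 66.7 and 114 TPM, with transport and matrix genes taking most of each bar in the TREM2+ libraries.

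Of the 36 genes, 35 had a higher mean in the TREM2+ libraries. In 33 all 3 TREM2+ libraries lay above all 3 TREM2- libraries, and in 3 (Flt1, Nrp1 and Cd34) the groups overlapped. Among 38054 genes above 0 in any library, all TREM2+ libraries lay above all TREM2- libraries in 4.65%. Among the genes tested the share was 9.07%, and 29 of the 32 members tested had such groups. A filter of at least 1 TPM in at least 3 libraries kept 32 of the 36, leaving out Erg, Sox17, Notch4 and Vwf. In the limma fit over 13788 genes 24 of the 32 were past an adjusted p of 0.05 in the higher direction, where 2.05% of all genes were; the choice of the genes used that contrast, and nothing is read from these counts. Without TREM2- replicate 3 the 24 became 16, and without both libraries numbered 3 limma called 0 of all genes. In that last fit 762 of 13788 genes were higher and 583 lower by unadjusted p under 0.05 in limma. The higher genes held 27 of the 32 members tested, a count from which nothing is read either, since the choice of the genes used that contrast. Ratios of the group means ran from 0.544 for Cd34 to 13.1 for Aqp1, with a median of 6.97. They exceeded 10 in 5 genes, lay between 4 and 10 in 21, between 2 and 4 in 5, between 1 and 2 in 4, and below 1 in 1.

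**Figure D2:**
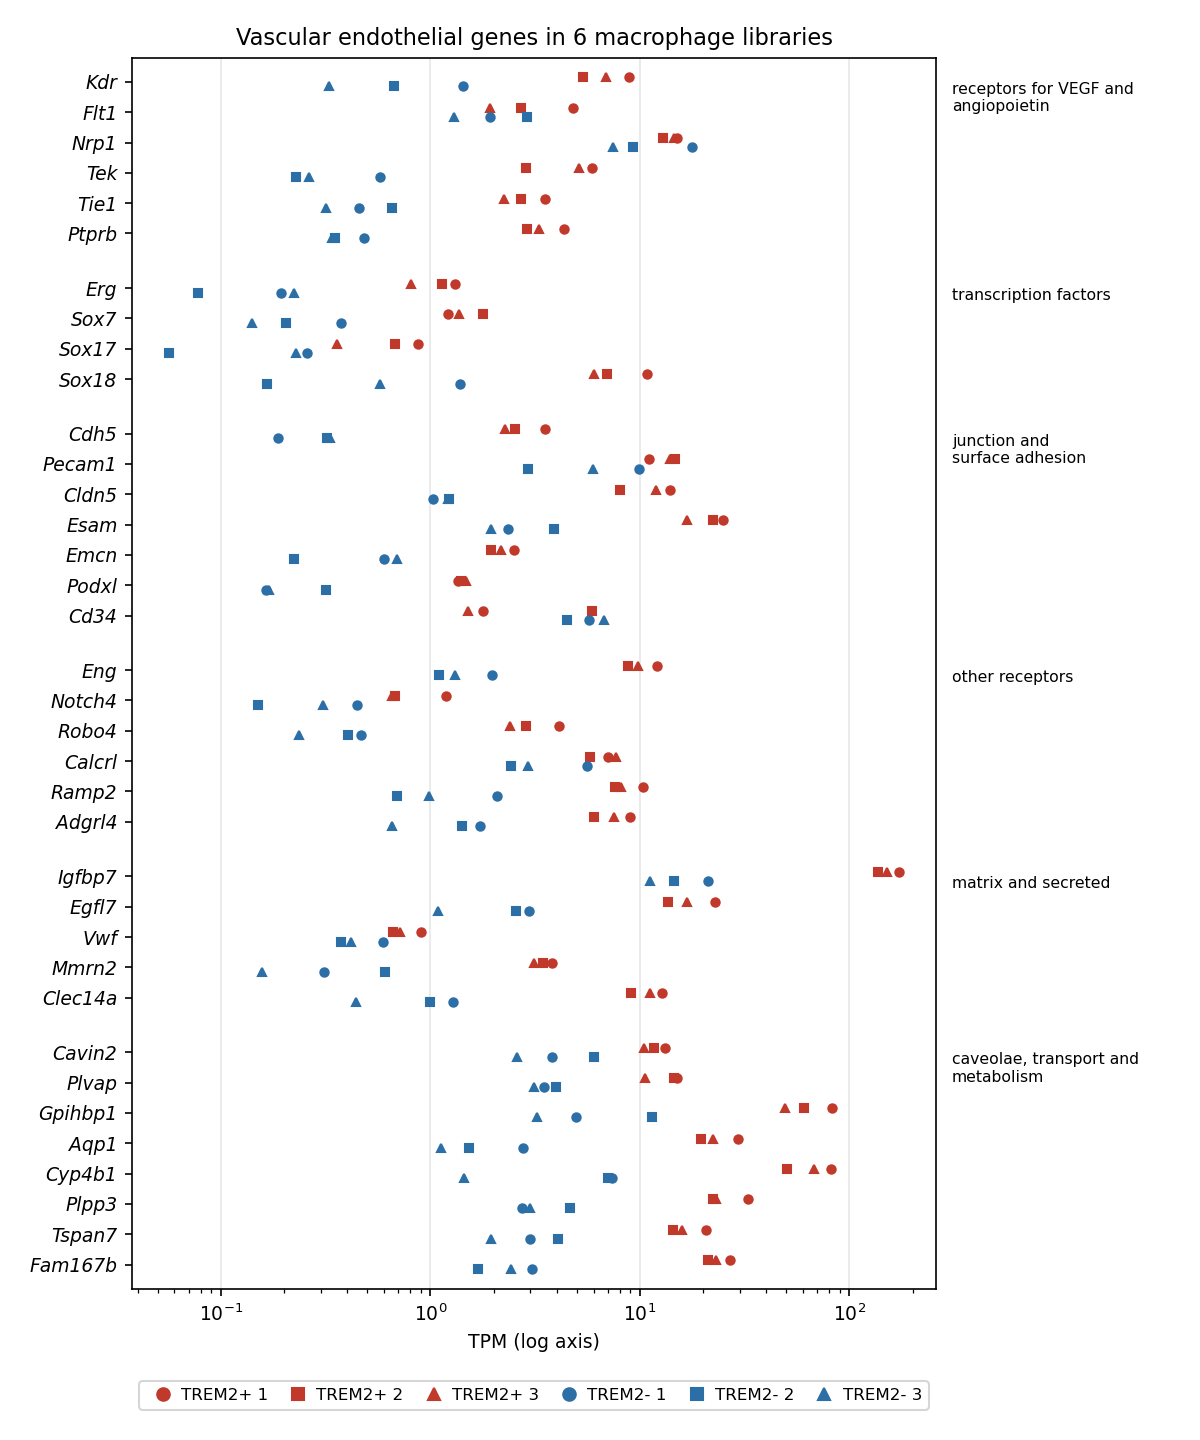
TPM of each of the 36 genes (log axis) in the 3 TREM2+ libraries (red) and the 3 TREM2- libraries (blue), 1 point per library, grouped by role. The groups are apart for 33 genes and overlap for Flt1, Nrp1 and Cd34.

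The receptors for VEGF did not behave alike. Kdr, which encodes the main signalling receptor for VEGF-A (chromosome 5, 75932827 to 75978458, mm10), had 8.82, 5.33 and 6.90 TPM in the TREM2+ libraries, against 1.43, 0.668 and 0.327 TPM in the TREM2- libraries. Its lowest TREM2+ library was above its highest TREM2- library, and the group means differed 8.68-fold. Flt1, the gene of a second VEGF receptor that binds VEGF-A tightly and signals weakly (chromosome 5, 147561604 to 147726011), had 4.77, 2.701 and 1.93 TPM in the TREM2+ libraries, against 1.92, 2.89 and 1.30 TPM in the TREM2- libraries. Here the groups overlapped, since TREM2- replicate 2 was above TREM2+ replicates 2 and 3, and the log2 fold change was 0.42 ± 0.33. The co-receptor gene Nrp1 (chromosome 8, 128358604 to 128503363) had 15.1, 12.8 and 14.6 TPM in the TREM2+ libraries, against 17.6, 9.28 and 7.40 TPM in the TREM2- libraries, with TREM2- replicate 1 the highest of all 6 libraries. Its log2 fold change was 0.37 ± 0.31.

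The angiopoietin receptor genes all stood apart between the groups. Tek, which encodes TIE2, the receptor of the angiopoietins (chromosome 4, 94739289 to 94874976), had 5.89, 2.86 and 5.09 TPM in the TREM2+ libraries, against 0.571, 0.228 and 0.264 TPM in the TREM2- libraries, a 13.02-fold difference of means. These levels rest on 214, 96 and 154 reads in the TREM2+ libraries and 24, 8 and 8 reads in the TREM2- libraries. Its co-receptor gene Tie1 had 3.51, 2.71 and 2.25 TPM in the TREM2+ libraries, against 0.456, 0.655 and 0.316 TPM in the TREM2- libraries, and Ptprb, the gene of the phosphatase VE-PTP that restrains TIE2, had 4.36, 2.88 and 3.31 TPM in the TREM2+ libraries, against 0.480, 0.352 and 0.338 TPM in the TREM2- libraries. In neither gene did a TREM2- library reach 1 TPM, and no TREM2+ library was below 2 TPM.

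Ligand genes for these receptors were present in the same libraries. For these and the other genes outside the 36, limma was refitted with each library left out in turn. List counts stand beside a base over all 13788 genes tested, of which limma called 2.05% higher and 0.37% lower. By unadjusted p under 0.05 in limma, 1027 of those genes were higher and 736 lower. Vegfa had 32.3, 51.1 and 27.4 TPM in the TREM2+ libraries, against 9.19, 18.1 and 13.7 TPM in the TREM2- libraries, with every TREM2+ library above every TREM2- library, and a log2 fold change of 1.37 ± 0.31 that did not pass (adjusted p = 0.0644, limma). Of 24 genes listed as ligands of these and the other receptors, 11 were tested: 3 rose (Adm, Dll4 and Lpl), 0 fell and 8 did not pass, while unadjusted p-values under 0.05 numbered 7 higher and 1 lower, against 6 higher and 0 lower with limma's voom on recovered reads. Their median log2 fold change was 0.98, beside -0.09 over all genes tested. The 3 became 0 without any 1 of the TREM2+ libraries or without TREM2- replicate 3, and 1 without TREM2- replicate 1. Dll4, a Notch ligand of endothelial tip cells, rose, to 2.30 ± 0.205 TPM in TREM2+ macrophages, against 0.451 ± 0.193 TPM in TREM2- macrophages (log2 fold change 1.19 ± 0.25, adjusted p = 0.0477), but that call was lost whichever library was dropped, with adjusted p between 0.0669 and 0.182.

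Of the endothelial transcription factors, Erg, Sox7 and Sox17 had low transcript levels and Sox18 a higher one. Erg, an ETS factor needed for endothelial identity (chromosome 16, 95359169 to 95586593), had 1.31, 1.13 and 0.809 TPM in the TREM2+ libraries, against 0.194, 0.0774 and 0.224 TPM in the TREM2- libraries, from 35, 28 and 18 reads in the TREM2+ libraries and 6, 2 and 5 reads in the TREM2- libraries. Sox18 (chromosome 2, 181669836 to 181671640) was the most abundant of the SOXF genes, with 10.8, 6.93 and 6.06 TPM in the TREM2+ libraries, against 1.39, 0.166 and 0.576 TPM in the TREM2- libraries, an 11.2-fold difference of means. Sox7 had 1.22, 1.79 and 1.37 TPM in the TREM2+ libraries, against 0.374, 0.203 and 0.141 TPM in the TREM2- libraries, and Sox17 had 0.870, 0.676 and 0.359 TPM in the TREM2+ libraries, against 0.259, 0.0562 and 0.228 TPM in the TREM2- libraries. All 4 genes were higher in each TREM2+ library than in any TREM2- library, and all 4 had a TREM2- library with 3 reads or fewer, so the TREM2- levels carry a large counting error. For Sox18, TREM2- replicate 2 held only 2 reads. Without a stated strand setting, Sox17 reads cannot be told from those of Gm37587, which overlaps it on the other strand.

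Promoters are shown for members that hold the 7 letters CAGGAAG, a form of the site bound by ETS factors, because most of the 36 genes differ together between the groups and ETS factors are known regulators of endothelial genes. RefSeq promoters on GRCm38.p6 (250 bases before to 50 after a listed RefSeq start) matched 23 of the 36 genes. Those of Cdh5, Esam, Gpihbp1, Mmrn2, Pecam1, Plvap, Podxl, Ptprb, Ramp2, Sox17, Sox18, Sox7 and Vwf are not used here. The first listed start of each gene was used, and 2 of the 36 genes had more than 1. A listed start can differ from the gene bounds given elsewhere here. The Egfl7 window lies inside the Egfl7 gene, which spans 26580014 to 26593120. Given below are the 4 most abundant of the 6 genes that hold it, namely Egfl7 (chr2:26580833-26581132, forward strand), Calcrl (chr2:84425217-84425516, reverse strand), Cd34 (chr1:194938571-194938870, forward strand) and Robo4 (chr9:37401722-37402021, forward strand). Capitals mark the motif on either strand, so that CTTCCTG is the same site read from the other strand.
Egfl7: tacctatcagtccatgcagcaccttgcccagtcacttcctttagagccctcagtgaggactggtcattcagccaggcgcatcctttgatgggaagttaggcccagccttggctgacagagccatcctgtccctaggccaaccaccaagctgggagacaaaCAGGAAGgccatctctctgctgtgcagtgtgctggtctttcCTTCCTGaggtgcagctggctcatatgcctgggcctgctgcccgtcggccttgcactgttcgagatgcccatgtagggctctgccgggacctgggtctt
Calcrl: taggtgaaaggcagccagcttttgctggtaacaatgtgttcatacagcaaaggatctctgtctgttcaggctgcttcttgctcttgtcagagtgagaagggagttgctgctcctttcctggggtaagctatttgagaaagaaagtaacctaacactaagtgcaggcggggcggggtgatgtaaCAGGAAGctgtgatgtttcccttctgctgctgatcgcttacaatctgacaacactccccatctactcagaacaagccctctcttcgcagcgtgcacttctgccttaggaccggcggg
Cd34: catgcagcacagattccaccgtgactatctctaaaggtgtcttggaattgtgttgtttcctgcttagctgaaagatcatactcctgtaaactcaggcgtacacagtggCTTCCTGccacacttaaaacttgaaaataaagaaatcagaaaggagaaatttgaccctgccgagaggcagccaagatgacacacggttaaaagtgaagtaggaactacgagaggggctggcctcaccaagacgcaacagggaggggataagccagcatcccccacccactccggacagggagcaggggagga
Robo4: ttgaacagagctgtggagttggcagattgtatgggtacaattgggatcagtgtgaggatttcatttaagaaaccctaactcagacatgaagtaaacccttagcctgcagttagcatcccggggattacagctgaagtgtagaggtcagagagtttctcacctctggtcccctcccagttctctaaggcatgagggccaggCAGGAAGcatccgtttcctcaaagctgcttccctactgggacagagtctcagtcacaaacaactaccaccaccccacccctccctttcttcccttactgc

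CAGGAAG, searched on both strands, was found in 6 of the 23 promoters (26.1%), against 12.96% of 27025 mouse promoters of the same length. The Egfl7 promoter held it 2 times. By ratio of means, Egfl7 was 8.09-fold, Robo4 8.47-fold, Emcn 4.36-fold, Notch4 2.80-fold and Calcrl 1.88-fold higher in the TREM2+ libraries, each with groups apart, while the ratio for Cd34 was 0.544, with overlapping groups. The related ETS form CCGGAAG was in 0 of the 23, against 9.12% of all promoters. Either ETS form was in 6 of the 23 (26.1%), against 20.86% of all promoters. AACAGGA, the forkhead-ETS overlap, was in 4 (17.4%), against 6.36%, and its last letters can be the first letters of CAGGAAG, as in Calcrl. Of the SOX forms, ACAAAG was in 2 (8.70%, against 18.7%) and AACAAT in 4 (17.4%, against 10.9%). The GATA form AGATAA and the TATA box TATAAA were in 1 promoter each (4.35%), against 11.4% and 14.2% of all promoters. GC content had a median of 58.3% in the 23 promoters and 52.7% in all.

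Genes of endothelial junctions were clearly separate between the groups. Cldn5, which encodes the tight-junction protein claudin-5 (chromosome 16, 18776847 to 18778262), had 13.9, 8.02 and 11.9 TPM in the TREM2+ libraries, against 1.03, 1.23 and 1.21 TPM in the TREM2- libraries, and its TREM2- libraries lay within a narrow range. Esam, an adhesion molecule of endothelial tight junctions and platelets (chromosome 9, 37528078 to 37538319), had 24.9, 22.3 and 16.7 TPM in the TREM2+ libraries, against 2.35, 3.88 and 1.95 TPM in the TREM2- libraries. Cdh5, which encodes VE-cadherin (chromosome 8, 104101625 to 104144511), was less abundant, with 3.52, 2.54 and 2.26 TPM in the TREM2+ libraries, against 0.187, 0.319 and 0.333 TPM in the TREM2- libraries, from 114, 76 and 61 reads in the TREM2+ libraries and 7, 10 and 9 reads in the TREM2- libraries. The ratios of means were 9.75, 7.80 and 9.91 for these 3 genes.

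Surface adhesion genes differed more among themselves. Pecam1, the gene of CD31 (chromosome 11, 106654217 to 106750628), had 11.02, 14.8 and 13.9 TPM in the TREM2+ libraries, against 9.87, 2.93 and 5.94 TPM in the TREM2- libraries, so that TREM2- replicate 1 nearly reached TREM2+ replicate 1. The mucin-like genes Emcn and Podxl were 4.36-fold and 6.49-fold higher by ratio of means, at 2.20 ± 0.277 TPM in TREM2+ and 0.505 ± 0.248 TPM in TREM2- libraries and 1.41 ± 0.0643 TPM in TREM2+ and 0.217 ± 0.0872 TPM in TREM2- libraries (SD, n = 3). Cd34 (chromosome 1, 194938819 to 194961279), a sialomucin of endothelium and blood progenitors, was the exception among the 36, with 1.78, 5.91 and 1.52 TPM in the TREM2+ libraries, against 5.74, 4.47 and 6.72 TPM in the TREM2- libraries. Its mean was lower in the TREM2+ libraries, TREM2+ replicate 2 lay among the TREM2- values, and the log2 fold change was -0.85 ± 0.39. Exons of Gm16897 overlap Cd34 on the other strand.

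Among the other receptors, Eng, the endoglin co-receptor for BMP9 and TGF-beta (chromosome 2, 32646595 to 32682669), had 12.02, 8.73 and 9.81 TPM in the TREM2+ libraries, against 1.97, 1.09 and 1.31 TPM in the TREM2- libraries, a 6.999-fold difference of means. Acvrl1, the gene of its partner kinase ALK1, rose, to 30.3 ± 1.76 TPM in TREM2+ macrophages, against 12.2 ± 3.15 TPM in TREM2- macrophages (log2 fold change 1.27 ± 0.23, adjusted p = 0.0264, limma). This call was lost without TREM2+ library 1, 2 or 3, and also without TREM2- library 2 or 3, with adjusted p between 0.0680 and 0.106. Robo4, an endothelial receptor of the roundabout family, had 4.09, 2.86 and 2.41 TPM in the TREM2+ libraries, against 0.466, 0.405 and 0.235 TPM in the TREM2- libraries, and Adgrl4, an adhesion G protein-coupled receptor also known as ELTD1, had 8.94, 6.03 and 7.48 TPM in the TREM2+ libraries, against 1.73, 1.41 and 0.654 TPM in the TREM2- libraries. Both were apart between the groups. Notch4 was low everywhere, at 0.842 ± 0.302 TPM in TREM2+ and 0.301 ± 0.148 TPM in TREM2- libraries (SD, n = 3).

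The genes of the adrenomedullin receptor did not move as a set. Calcrl encodes a receptor whose ligand depends on its partner: with RAMP2 or RAMP3 it binds adrenomedullin, and with RAMP1 it binds CGRP. Calcrl itself (chromosome 2, 84330626 to 84425411) had 7.07, 5.80 and 7.66 TPM in the TREM2+ libraries, against 5.58, 2.42 and 2.93 TPM in the TREM2- libraries, with TREM2- replicate 1 just under the lowest TREM2+ library. Ramp2 (chromosome 11, 101246028 to 101259546) had 10.4, 7.56 and 8.12 TPM in the TREM2+ libraries, against 2.07, 0.691 and 0.989 TPM in the TREM2- libraries, a 6.94-fold difference of means; some of its exons overlap those of Vps25 on the same strand. Ramp1 ran the other way, with 16.1, 33.5 and 16.1 TPM in the TREM2+ libraries, against 84.5, 77.4 and 57.1 TPM in the TREM2- libraries. It fell by 1.76 on the log2 scale (standard error 0.32, adjusted p = 0.0245, limma), and all 3 TREM2+ libraries were below all 3 TREM2- libraries. That call was lost without TREM2+ library 1 or 3, and also without TREM2- library 1 or 3, with adjusted p between 0.0688 and 0.0907. Ramp3 had 4.04, 10.9 and 3.05 TPM in the TREM2+ libraries, against 11.3, 10.3 and 11.04 TPM in the TREM2- libraries, which overlapped and did not pass (log2 fold change -0.93 ± 0.38, adjusted p = 0.339). Ramp1 was the most abundant of the 3 partner genes in every one, and the ratio of Ramp2 to Ramp1 was higher in each TREM2+ library than in any TREM2- library. Adm, the adrenomedullin gene, rose, to 25.97 ± 5.65 TPM in TREM2+ macrophages, against 9.19 ± 3.28 TPM in TREM2- macrophages (log2 fold change 1.44 ± 0.30, adjusted p = 0.0456), a call lost without TREM2+ library 1, 2 or 3, and also without TREM2- library 1 or 3, with adjusted p between 0.0656 and 0.138.

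Of 20 partner receptor genes 15 were tested, of which 2 rose (Flt4 and Acvrl1), 1 fell (Ramp1) and 12 did not pass, and their median log2 fold change was 0.22. The risers were 0 without TREM2- replicate 3, 2 without TREM2- replicate 1 and 1 in each other fit that leaves out 1 library. Flt4, the VEGF-C receptor gene of lymphatic and sinusoidal endothelium, had 3.89, 3.08 and 2.50 TPM in the TREM2+ libraries, against 0.286, 0.147 and 0.151 TPM in the TREM2- libraries (log2 fold change 1.79 ± 0.26, adjusted p = 0.00992, limma), and its call was lost without TREM2- library 3, with adjusted p = 0.0613. Itgb1, the most abundant of the list and expressed by most cells, had 126 ± 10.8 TPM in TREM2+ and 114 ± 46.4 TPM in TREM2- libraries.

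Matrix and secreted genes held the most abundant member. Igfbp7, which encodes an extracellular binding protein deposited around vessels (chromosome 5, 77349240 to 77408041), had 173, 137 and 150.5 TPM in the TREM2+ libraries, against 21.1, 14.5 and 11.2 TPM in the TREM2- libraries, from 1614, 1185 and 1168 reads in the TREM2+ libraries and 227, 131 and 87 reads in the TREM2- libraries. The lowest TREM2+ library was far above the highest TREM2- library, and the ratio of means was 9.86. Its exons overlap Polr2b on the other strand. Egfl7, a secreted factor of endothelium (chromosome 2, 26580014 to 26593120), had 22.9, 13.6 and 16.7 TPM in the TREM2+ libraries, against 2.95, 2.55 and 1.09 TPM in the TREM2- libraries; it overlaps Agpat2 on the other strand, which stood at 28.1 TPM on average. Clec14a, a C-type lectin of vessels, had 12.7, 9.02 and 11.1 TPM in the TREM2+ libraries, against 1.28, 0.998 and 0.442 TPM in the TREM2- libraries, and Mmrn2, the matrix protein that binds it, had 3.79, 3.46 and 3.14 TPM in the TREM2+ libraries, against 0.311, 0.607 and 0.156 TPM in the TREM2- libraries. Both partners were apart between the groups, with ratios of means of 12.1 and 9.66. Vwf, the gene of von Willebrand factor made by larger vessels and megakaryocytes, was near the bottom of the list in level, with 0.904, 0.664 and 0.718 TPM in the TREM2+ libraries, against 0.594, 0.376 and 0.416 TPM in the TREM2- libraries, and its ratio of means was only 1.65.

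Transport and metabolic genes of capillaries held the largest ratio of means among the 36. Gpihbp1 (chromosome 15, 75596628 to 75599481), which carries lipoprotein lipase to the capillary surface, had 82.8, 60.9 and 49.2 TPM in the TREM2+ libraries, against 4.96, 11.4 and 3.23 TPM in the TREM2- libraries, with TREM2- replicate 2 the highest of its group. The lipase gene Lpl, which macrophages express, had 35.6, 26.01 and 26.8 TPM in the TREM2+ libraries, against 14.99, 8.92 and 5.71 TPM in the TREM2- libraries and rose (log2 fold change 1.56 ± 0.32, adjusted p = 0.0443, limma), a call lost without TREM2+ library 1, 2 or 3, and also without TREM2- library 2 or 3, with adjusted p between 0.0527 and 0.140. Cyp4b1, a cytochrome P450 gene (chromosome 4, 115624725 to 115647723), had 81.8, 50.4 and 68.1 TPM in the TREM2+ libraries, against 7.36, 7.07 and 1.45 TPM in the TREM2- libraries, and TREM2- replicate 3 was well below its group. The water channel gene Aqp1 (chromosome 6, 55336432 to 55348555) had 29.3, 19.6 and 22.4 TPM in the TREM2+ libraries, against 2.78, 1.53 and 1.12 TPM in the TREM2- libraries, and that ratio was 13.1. Plpp3, which encodes a phosphatase that degrades lysophosphatidic acid, had 32.9, 22.3 and 23.1 TPM in the TREM2+ libraries, against 2.73, 4.63 and 3.001 TPM in the TREM2- libraries, and Fam167b, whose function is little known, had 26.8, 21.2 and 23.1 TPM in the TREM2+ libraries, against 3.04, 1.68 and 2.43 TPM in the TREM2- libraries. Tspan7, a tetraspanin gene on chromosome X, had 20.6, 14.4 and 15.8 TPM in the TREM2+ libraries, against 3.001, 4.04 and 1.94 TPM in the TREM2- libraries. In all of these the groups were apart.

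Genes of caveolae and fenestrae did not all behave alike between the groups. Cavin2, a caveola coat protein abundant in endothelium and platelets, had 13.2, 11.6 and 10.50 TPM in the TREM2+ libraries, against 3.78, 6.01 and 2.59 TPM in the TREM2- libraries, and Plvap, which encodes the diaphragm protein of fenestrae and caveolae, had 15.1, 14.6 and 10.6 TPM in the TREM2+ libraries, against 3.50, 3.98 and 3.13 TPM in the TREM2- libraries. In both the groups were apart. Cav1 and Cavin1, also genes of caveolae, overlapped between the groups. Cav1, the caveolin gene, had 6.70, 5.29 and 4.84 TPM in the TREM2+ libraries, against 3.78, 13.8 and 4.78 TPM in the TREM2- libraries. Cavin1 had 1.70, 1.37 and 1.22 TPM in the TREM2+ libraries, against 0.751, 1.61 and 0.737 TPM in the TREM2- libraries. Of 5 further caveola genes 4 were tested with limma and 0 rose or fell, with 0 also at an unadjusted p under 0.05 and 0 with voom. Their median log2 fold change was 0.13, and that of Cav1 was -0.18 ± 0.40.

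**Figure D3:**
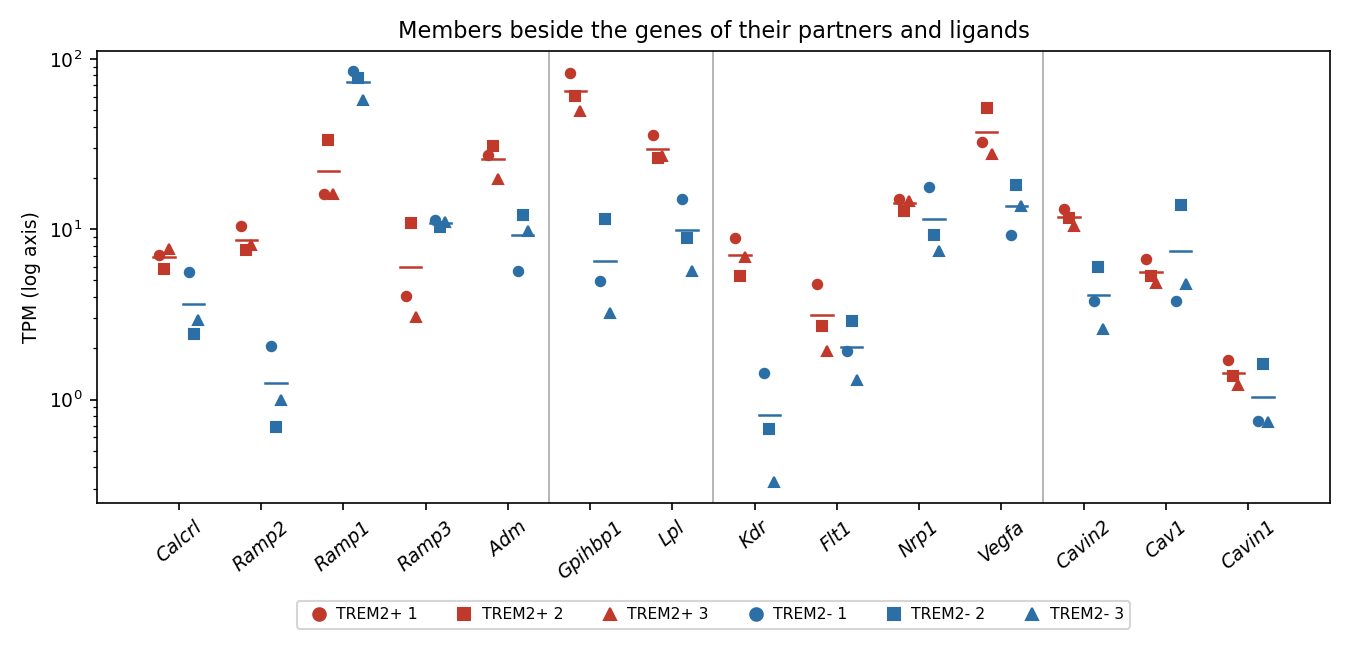
TPM (log axis) of 7 of the 36 genes (Calcrl, Ramp2, Gpihbp1, Kdr, Flt1, Nrp1 and Cavin2) beside 7 ligand and partner genes (Ramp1, Ramp3, Adm, Lpl, Vegfa, Cav1 and Cavin1) in the TREM2+ libraries (red) and TREM2- libraries (blue), with bars at the group means. Ramp2 is higher and Ramp1 lower in all TREM2+ libraries, while Flt1, Nrp1, Ramp3, Cav1 and Cavin1 overlap.

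The 36 genes did not make up the summed level in the same way in each group. Igfbp7, Cyp4b1 and Gpihbp1 led in the TREM2+ libraries, with mean shares of 26.98%, 11.6% and 11.2%, against 16.9%, 5.39% and 7.14% in the TREM2- libraries. Nrp1 made up 2.50% of the summed level in the TREM2+ libraries and 12.1% in the TREM2- libraries. Cd34 made up 0.571% of the summed level in the TREM2+ libraries and 6.62% in the TREM2- libraries, and Pecam1 2.38% of the summed level in the TREM2+ libraries and 6.89% in the TREM2- libraries. In 8 genes (Cd34, Nrp1, Flt1, Vwf, Calcrl, Pecam1, Notch4 and Cavin2) the TREM2+ share was below 0.5 of the TREM2- share, a limit set after the shares were seen. The share ratio is the between-group difference of a gene relative to the sum, so these 8 are by construction the genes that differ least or run the other way, and nothing is read from the split.

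**Figure D4:**
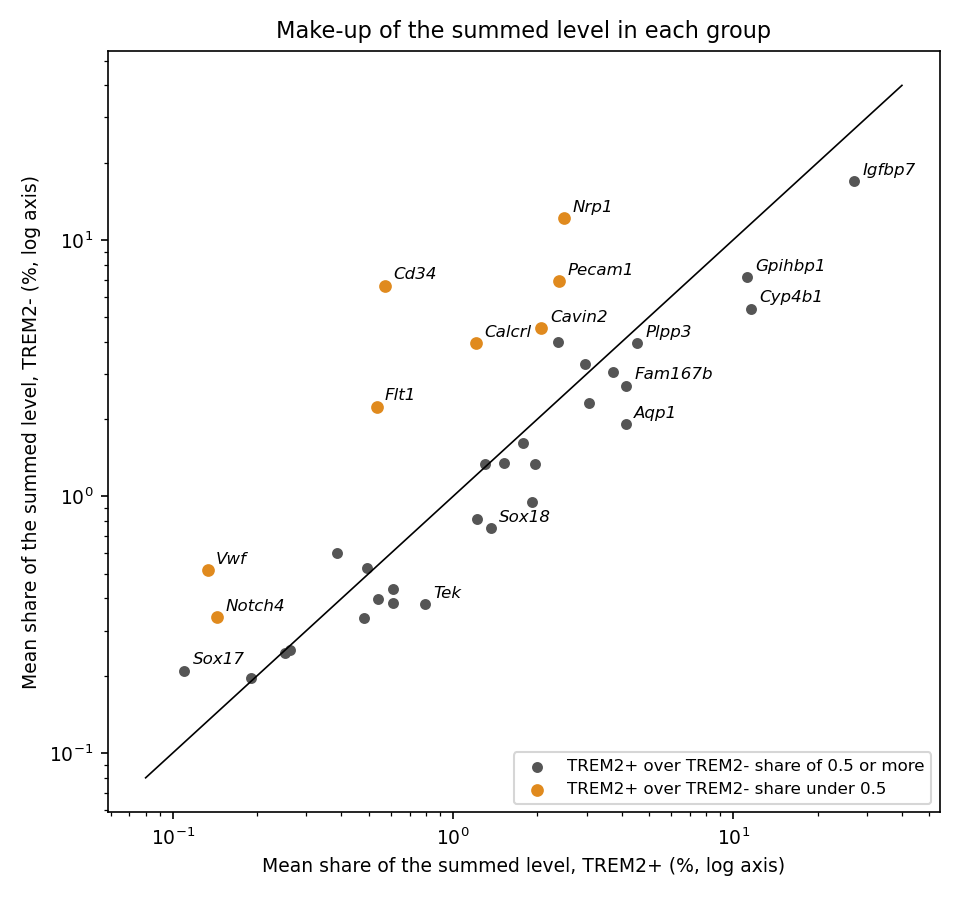
Mean share of each of the 36 genes in the summed level of its library, TREM2+ on the x axis and TREM2- on the y axis (both in percent, log axes, mean of 3 libraries). Genes on the diagonal take the same share in both groups; the 8 genes in orange, among them Nrp1 at 2.50% in TREM2+ and 12.1% in TREM2-, lie above it.

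Across the 36 genes, log2 TPM of any pair of TREM2+ libraries correlated at 0.967 to 0.984, and that of any pair of TREM2- libraries at 0.863 to 0.928. These are Pearson values over genes, which are not independent, and the TREM2- libraries had fewer reads on these genes. Between the group means the value was 0.821. The median coefficient of variation over replicates was 20.6% in the TREM2+ group and 44.2% in the TREM2- group. Within the TREM2+ group replicate 1 was the highest for 31 of the 36 genes, replicate 2 for 3 and replicate 3 for 2. Within the TREM2- group the order was less uniform, with replicate 1 highest for 21, replicate 2 for 11 and replicate 3 for 4. Replicate 1 also had the highest share of mitochondrial transcripts in each group, 10.02% of TPM in TREM2+ replicate 1 and 12.3% in TREM2- replicate 1. It had the lowest share of the repeat family in each group as well, 0.704% in TREM2+ replicate 1 and 0.427% in TREM2- replicate 1. The part of either share in these levels was not tested, nor was the order of libraries set beside that over all genes.

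Vascular genes outside the 36 were followed by lists that were written with earlier results of these data known. Of 24 further pan-endothelial genes 16 were tested: 4 rose, 0 fell and 12 did not pass, while unadjusted p-values under 0.05 numbered 9 higher and 0 lower, against 9 higher and 0 lower with voom. The 4 were Tmem204 (16.1 ± 3.12 TPM in TREM2+ macrophages, against 2.01 ± 1.17 TPM in TREM2- macrophages), Ushbp1 (5.200 ± 1.21 TPM in TREM2+ and 0.416 ± 0.113 TPM in TREM2- libraries), Myct1 (3.35 ± 0.505 TPM in TREM2+ and 0.355 ± 0.427 TPM in TREM2- libraries) and Exoc3l2 (2.68 ± 0.684 TPM in TREM2+ and 0.351 ± 0.103 TPM in TREM2- libraries), of which Exoc3l2 was picked after its values were seen. Tmem204 and Ushbp1 stayed called whichever library was left out, whereas Myct1 lost its call without TREM2+ library 1 or 3, and also without TREM2- library 3, with adjusted p between 0.0625 and 0.0980, and Exoc3l2 without TREM2+ library 1 or 3, and also without TREM2- library 1 or 3, with adjusted p between 0.0557 and 0.124. The list's count was 2 without TREM2+ replicate 1, TREM2+ replicate 3 or TREM2- replicate 3. Fli1, an ETS factor shared by endothelium and blood cells and the most abundant of the list, had 32.2, 35.6 and 25.6 TPM in the TREM2+ libraries, against 47.1, 27.6 and 28.3 TPM in the TREM2- libraries, with overlapping groups and a log2 fold change of -0.11 ± 0.27. The list's median was 0.90. Its summed level was 159, 146 and 129 TPM in the TREM2+ libraries, against 165, 84.5 and 87.1 TPM in the TREM2- libraries. The ratio of the mean sums was 1.29, with overlapping groups and TREM2- replicate 1 the highest of all. Fli1, Icam2 and Ets1 held 34.3, 32.4 and 17.999 TPM of the mean sum of 112 TPM in TREM2- libraries. In TREM2+ libraries they held 31.1, 28.7 and 16.5 TPM of 145 TPM. Each was highest in TREM2- replicate 1. The sum therefore does not give the difference of the less abundant genes. In 12 of the 24 genes all TREM2+ libraries lay above all TREM2- libraries, and in the others the groups overlapped.

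Genes of arteries, veins and sprouting tips rose in 5 of 11 tested, with 0 fallen and 6 not passed (7 higher and 1 lower by unadjusted p under 0.05, and 6 higher and 1 lower with voom), and the list's median was 1.18. The 5 became 3 without TREM2+ library 1 or 3, and also without TREM2- library 1 or 3. Dll4 was among them. Gja4, the gap junction gene of arterial endothelium, had 11.7, 10.99 and 11.8 TPM in the TREM2+ libraries, against 0.599, 1.75 and 1.29 TPM in the TREM2- libraries (log2 fold change 2.53 ± 0.26, adjusted p = 0.00439, limma). Esm1, a tip cell gene, had 6.06, 9.37 and 5.05 TPM in the TREM2+ libraries, against 0.696, 0.831 and 1.33 TPM in the TREM2- libraries (1.98 ± 0.28, adjusted p = 0.00992), and the adhesion molecule gene Vcam1, which Kupffer cells and endothelium share, had 71.3, 84.96 and 66.97 TPM in the TREM2+ libraries, against 6.93, 12.9 and 19.4 TPM in the TREM2- libraries (2.52 ± 0.33, adjusted p = 0.00749). These 3 kept their call whichever library was dropped, but Esm1 lost it when every gene above 0 was tested (adjusted p = 0.0568, limma). Ackr1, a venular chemokine-binding gene, had 5.72, 2.80 and 11.2 TPM in the TREM2+ libraries, against 0.799, 0.382 and 0.996 TPM in the TREM2- libraries (1.99 ± 0.41, adjusted p = 0.0423) and lost its call without TREM2+ library 1 or 3, and also without TREM2- library 1 or 3, with adjusted p between 0.0815 and 0.138. Bmx and Sele ran the other way, with all TREM2+ libraries below all TREM2- libraries, and did not pass. Bmx had 4.49, 11.5 and 5.49 TPM in the TREM2+ libraries, against 16.4, 17.4 and 18.4 TPM in the TREM2- libraries (-1.27 ± 0.31, adjusted p = 0.0867, limma). Sele had 0.820 ± 0.304 TPM in TREM2+ and 1.49 ± 0.183 TPM in TREM2- libraries (adjusted p = 0.546, limma). Sema3g, an arterial gene, was listed at 0 in 4 of the 6 libraries.

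Markers of liver sinusoidal endothelium rose in 15 of 17 tested, 0 fell and 2 did not pass, with 17 higher and 0 lower by unadjusted p under 0.05 and 16 higher and 0 lower with voom. Macrophages also express some of them, such as Mrc1, Cd36, Maf and Fcgr2b. Their median log2 fold change was 2.03. Over all 13788 genes tested 2.05% were called higher, and 1027 were higher by unadjusted p under 0.05 in limma. The count of called sinusoidal markers was 9 without TREM2- replicate 3 and 10 without TREM2+ replicate 1. Their summed level was 939, 804 and 675 TPM in the TREM2+ libraries, against 236, 305 and 236 TPM in the TREM2- libraries. Fcgr2b alone held 350 TPM of the mean sum of 806 TPM in TREM2+ and 188 TPM of 259 TPM in TREM2- libraries. Clec4g had 189, 124 and 166 TPM in the TREM2+ libraries, against 19.1, 13.02 and 7.39 TPM in the TREM2- libraries (3.57 ± 0.33, adjusted p = 0.00335, limma), and Gpr182, a decoy chemokine receptor gene of sinusoids, had 27.00, 21.8 and 22.4 TPM in the TREM2+ libraries, against 2.27, 1.90 and 1.34 TPM in the TREM2- libraries (3.13 ± 0.23, adjusted p = 0.00221). Fcgr2b, an Fc receptor of both sinusoidal endothelium and macrophages, had 398, 412 and 241 TPM in the TREM2+ libraries, against 144, 240.5 and 179 TPM in the TREM2- libraries and did not pass (adjusted p = 0.207). Of 6 lymphatic genes 2 were tested and both rose, Flt4 and Pdpn (5.74 ± 1.38 TPM in TREM2+ and 1.504 ± 0.480 TPM in TREM2- libraries, adjusted p = 0.0307); Pdpn lost its call without TREM2+ library 1 or 3, and also without TREM2- library 2 or 3, with adjusted p between 0.0612 and 0.129. Neither was called without TREM2- replicate 3. The lymphatic master regulator Prox1 was listed at 0 in TREM2+ replicates 2 and 3 and reached at most 0.167 TPM, and Ccl21a was listed at 0 in 4 libraries.

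Marker lists of other cells gave the following levels beside these results, and their part in the results was not tested. Macrophage genes summed to 69349.6, 88765 and 68651 TPM in the TREM2+ libraries, against 96739, 95856 and 83182 TPM in the TREM2- libraries, with 1 of 15 risen (Aif1) and 0 fallen; by unadjusted p under 0.05, as with voom, 4 were higher and 1 lower. The 1 became 2 without TREM2+ replicate 3 and 3 without TREM2- replicate 2. In 6 of the 15 all TREM2+ libraries lay above all TREM2- libraries. Lyz2, the most abundant of the list, went the other way in every library. It had 29839, 37301 and 28336 TPM in the TREM2+ libraries, against 66719, 70509 and 55343 TPM in the TREM2- libraries. Its log2 fold change of -1.02 ± 0.27 did not pass (adjusted p = 0.115, limma). Kupffer cell genes summed to 2352, 1319 and 1607 TPM in the TREM2+ libraries, against 417, 278 and 257 TPM in the TREM2- libraries, with 10 of 11 risen. Their count was 6 without TREM2- replicate 3. Within the TREM2+ group they had the same order of libraries as the 36 endothelial genes, replicate 1 above 3 above 2. Within the TREM2- group both ran replicate 1 above 2 above 3. The sums of the sinusoidal endothelial list ran replicate 1 above 2 above 3 in TREM2+, and replicate 2 was highest in TREM2-. Fcgr2b, which macrophages also express, was the most abundant gene of that list. It had 398, 412 and 241 TPM in the TREM2+ libraries, against 144, 240.5 and 179 TPM in the TREM2- libraries. These sums therefore do not give the order of the other sinusoidal genes. What these orders mean was not tested. Clec4f, a lectin receptor gene known from Kupffer cells, had 512, 267 and 350.0 TPM in the TREM2+ libraries, against 71.6, 30.9 and 31.4 TPM in the TREM2- libraries. Platelet genes summed to 1357, 806 and 662 TPM in the TREM2+ libraries, against 180.3, 223 and 187 TPM in the TREM2- libraries, of which Pf4, a gene that Kupffer cells also express, made up most and was the only riser of 7 tested, beside 1 more without TREM2+ replicate 3 (log2 fold change 2.56 ± 0.29, adjusted p = 0.00506). The platelet integrin gene Itga2b had 5.76, 6.22 and 2.11 TPM in the TREM2+ libraries, against 8.45, 5.56 and 3.53 TPM in the TREM2- libraries, with overlapping groups, and Gp1bb was listed at 0 in 5 of 6 libraries.

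Hepatocyte genes rose in 1 of 12 tested, Trf, and that call was lost whichever library was dropped (adjusted p between 0.0703 and 0.119). Trf had 1122 ± 162 TPM in TREM2+ and 516 ± 37.3 TPM in TREM2- libraries. It made up most of the list's mean sums of 1460 TPM in TREM2+ and 904 TPM in TREM2-, and Alb was far lower. Alb had 74.4, 21.5 and 22.7 TPM in the TREM2+ libraries, against 104, 12.3 and 11.9 TPM in the TREM2- libraries, with TREM2- replicate 1 the highest of all. Genes of mural, stellate and fibroblast cells summed to 22.3, 18.3 and 16.99 TPM in the TREM2+ libraries, against 22.4, 30.5 and 14.9 TPM in the TREM2- libraries, and of 3 tested with limma 0 rose or fell, with 1 higher and 0 lower by unadjusted p under 0.05 and likewise by voom. Tagln, the gene of a smooth muscle protein, was listed at 0 in all 3 TREM2- libraries and had 2 reads in each TREM2+ library. Cspg4, a pericyte gene, was listed at 0 in TREM2- replicate 2 and had at most 3 reads in any library. Both lay near the floor. Erythroid genes summed to 4230.4, 26389 and 7636 TPM in the TREM2+ libraries, against 8625, 9992 and 30661 TPM in the TREM2- libraries, with overlapping groups and 0 of 6 called by limma, 0 at an unadjusted p under 0.05 and 0 by voom. Median log2 fold changes of the tested genes were 1.61 for the lymphatic list, 0.23 for macrophage, 2.38 for Kupffer, -0.02 for platelet, 0.10 for hepatocyte, -0.22 for mural and -0.57 for erythroid genes, beside -0.09 over all genes tested.

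**Figure D5:**
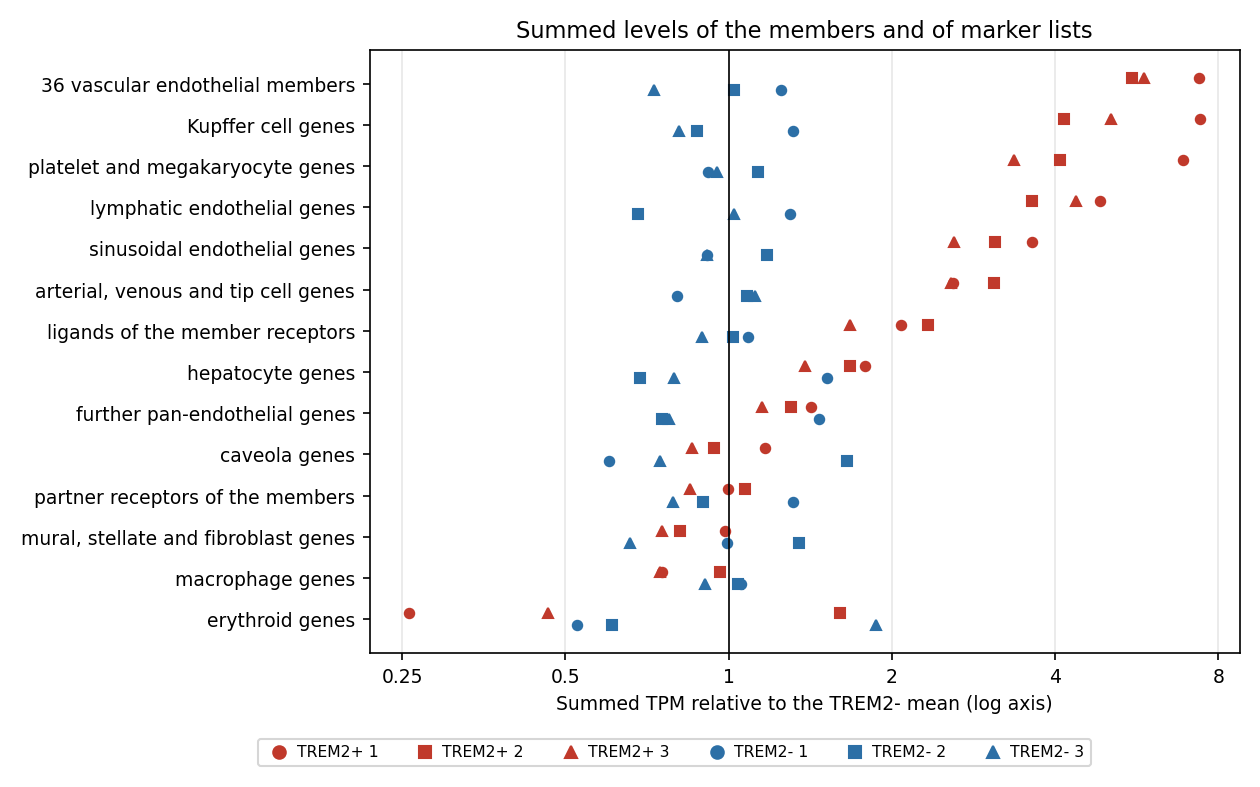
Summed TPM of the 36 endothelial genes and of 13 marker lists in each library, relative to the mean of the TREM2- libraries (log axis; vertical line at 1), TREM2+ libraries in red and TREM2- libraries in blue. For the 36 genes and the Kupffer, platelet, lymphatic, sinusoidal, arterial and ligand lists all 3 TREM2+ libraries lie right of all 3 TREM2- libraries. For the other 7 lists, the further pan-endothelial genes among them, the groups overlap. Fli1, Icam2 and Ets1 make up much of the pan-endothelial sum.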

How the data were processed

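RNA-seq of polyadenylated RNA, extracted from the macrophages with TRIzol and sequenced as read pairs on an Illumina NovaSeq per the labels, was deposited as 1 table of 6 libraries. The submitters' processing notes name STAR 2.7.10a, Subread with featureCounts 2.0.3, and mm10; no strand setting is stated in them. The authors deposited length-scaled signal values, called TPM, whose columns sum to 1000000 only together. Each library was therefore rescaled to 1000000, and these values are the TPM reported. Dividing by GENCODE M21 exon lengths recovered whole reads for 98.7% of 36673 genes above 0 (within 0.01 read), from 53186 symbols that matched 1 gene; they were recovered for 35 of the 36 genes (not Adgrl4) and served for depth, read counts and the voom alternative. Intervals between libraries cover the spread of 3 samples, and low read counts add counting error.

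The 3 TREM2+ and 3 TREM2- libraries were compared with limma 3.58.1 (R 4.3.3) on log2(TPM + 1), over genes of at least 1 TPM in at least 3 libraries, with Benjamini-Hochberg adjustment over all genes tested and a threshold of 0.05. Fold changes on that scale understate the change of low genes, and ratios of means are given on the TPM scale. The fit was tested on simulated data. Main calls numbered 282 higher and 51 lower; the split was 421 to 80 with median-of-ratios scaling, 284 to 101 without the repeat family in the total, 206 to 92 with no rescaling and 444 to 170 with voom. The 36 genes and all lists were chosen with earlier results of these data known. All 36 genes were named. In each other list, the rule for naming took up to 4 tested genes with the largest absolute log2 fold change. It also took those of highest and lowest mean. Not all genes that this rule took are given. Trem2 was added, and for promoters the most abundant of the 36 genes that hold an ETS motif. Cd68, Csf1r, Exoc3l2, Icam2, Ets1, Bmx, Sele, Prox1, Ccl21a, Tagln, Alb and overlapping genes such as Agpat2 outside that rule were named after their values were seen. Motifs were searched in RefSeq promoters. Alternatives were another pseudocount (0.1), other filters, other scalings, voom, a replicate block and leaving out libraries.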

Additional observations from a re-analysis of the deposited data

How the results depend on the processing

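The summed level of the 36 genes, a log2 ratio of 2.64 of TREM2+ over TREM2- means, ranged over 2.46 to 2.84 when 1 library was left out, and kept its direction under every alternative that gives a sum; voom gives none. Of the 36 genes, 24 were called, 14 with any gene above 0 tested, 27 with median-of-ratios scaling and 0 without both libraries numbered 3. Over all genes the calls were 282 higher and 51 lower. With any gene above 0 tested they were 95 and 3, and with voom on recovered reads 444 and 170. They were 252 and 31 with a pseudocount of 0.1, 421 and 80 with median-of-ratios scaling, 284 and 101 without the repeat family in the total, and 206 and 92 for deposited values with no rescaling. Leaving out 1 library gave 109 to 310 higher and 12 to 94 lower, and leaving out both libraries numbered 3, which leaves 2 per group, gave 0 and 0. The 4 further pan-endothelial genes called became 2 with a filter of 5 TPM, 2 with any gene above 0, 9 with voom, 2 to 5 with 1 library left out and 0 without both numbered 3. With any gene above 0 tested, Ackr1, Acvrl1, Adm, Dll4, Esm1, Flt4, Lpl, Marco, Myct1, Pdpn, Ramp1 and Trf kept their direction but lost their call, with adjusted p between 0.0568 and 0.208 in limma. With the replicate number as a block, 116 were higher and 10 lower, with 1 pan-endothelial gene and 18 of the 36. The numbers are no known pairing: same-numbered libraries correlated at 0.188, -0.0325 and 0.224 in their deviations, and not every library was closest to its own number. The cause of these moves was not tested, beyond fewer samples or more genes tested by construction. Depth limits the transcription factor genes, where Erg, Sox7, Sox17 and Sox18 each had 3 reads or fewer in a TREM2- library.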
